A study of Mus musculus with 20 samples.

Results

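The genes described here are 7 protein-coding genes of the LIF and STAT3 pathway, Lifr, Il6st, Jak1, Stat3, Socs3, Socs2 and Pim1, and the accessible regions listed at them in mouse embryonic stem (ES) cells. A region was taken as a member when it overlapped one of these genes or lay within 50000 bp of it. This gave 115 of the 102373 regions in the list, at 7 of 21938 protein-coding genes. No region was assigned to more than 1 of the 7 genes, since none of their windows overlapped (0 pairs).

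LIF is the cytokine that keeps mouse ES cells from differentiating in culture. It binds a receptor made of LIFR and gp130, the product of Il6st, and the JAK kinases held by this receptor phosphorylate STAT3, which then enters the nucleus and binds DNA as a dimer. STAT3 activates genes of self-renewal and also its own inhibitors of the SOCS family, which damp the receptor complex.

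Open chromatin was mapped with ATAC-seq, an assay that tags DNA wherever a transposase can reach it. The cells were ZHBTc4, an ES cell line in which doxycycline (dox) shuts off the endogenous OCT4 gene. The cells carried a lentiviral SNAP-tagged OCT4 under the PGK promoter, fused to a mitotic degron that removes it at the exit from mitosis (MD-OCT4) or to a mutated degron that does not (MD*-OCT4), and were sorted for a narrow range of SNAP signal. In 16 libraries, cells kept in dox at 1 µg/ml for 40 h were sorted into 4 phases (EG1, LG1, S and SG2) for each of the 2 constructs, with 2 replicates per group. A further 4 libraries were from unsorted cells without dox. Every group also expressed the YPet-MD reporter used for sorting and was grown in serum with LIF, CHIR99021 and PD184352, so no group lacked LIF.

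The values analysed are the start and end of each peak after peaks from the 16 libraries with dox had been merged into 1 list, with no score, read count or value for a single library. Depth is therefore unknown, no replicate error can be given, and MD-OCT4 and MD*-OCT4, the phases and the cells without dox cannot be compared at any of the 7 genes. A listed peak was open enough to be called in at least 1 library, and the list does not say that DNA outside its peaks was closed. Width is the extent of a peak after merging and not its signal. Peaks at a transcription start site (TSS) were listed for 7 of 8 ES cell marker genes (the nearest peak to a TSS of Nanog lay 1402 bp away), but also for 3 of 5 fibroblast and 5 of 5 trophoblast markers, so a listed peak at a TSS did not separate these cell types.

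All 7 genes had a listed peak over their annotated 5′ end, where 58.8% of all protein-coding genes had one. Counted within 1000 bp of any TSS of the gene, it was 7 of 7 against 70.4% of protein-coding genes. The genes differed more in the number of peaks around them. Lifr had 25 peaks, Pim1 had 20, Socs3 had 18, Stat3 had 16, Socs2 had 14, Jak1 had 12 and Il6st had 10.

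Because the windows ran from 103969 to 212916 bp, counts were set on a common length. Pim1 had 19 listed peaks per 100 kb of window, and 97.6% of protein-coding genes had fewer. Socs3 had 17.3, more than 95.3% of genes. Lifr followed with 12.1, Socs2 with 10.6 and Stat3 with 10.4, which lay above 78.0%, 70.3% and 69.0% of genes. Il6st, with 6.85, was at the middle of all genes (49.2% had fewer), and Jak1, with 5.64, was below it (42.0%). The median of the 7 genes was 10.6 peaks per 100 kb, against 6.97 over all protein-coding genes.

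**Figure D1:**
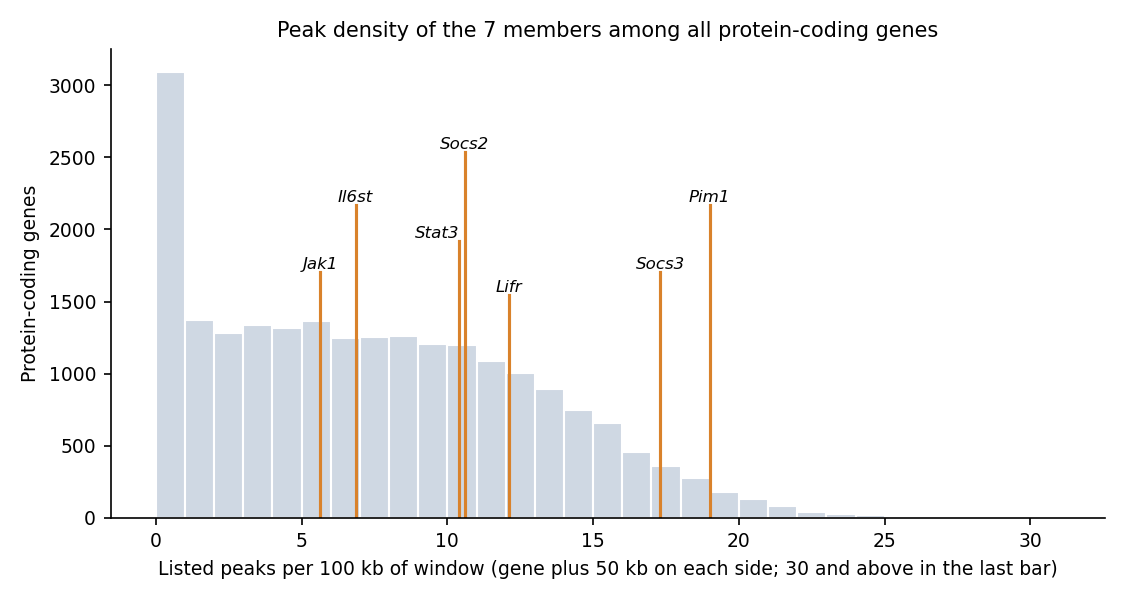
Listed peaks per 100 kb of window (x axis) for all protein-coding genes (bars, number of genes on the y axis) and for the 7 members (orange lines, whose height carries no value). Jak1 and Il6st sit at or below the middle of all genes, while Socs3 and Pim1 sit in the right tail at 17.3 and 19.

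The 2 densest windows belonged to the 2 shortest genes, Socs3 (3969 bp) and Pim1 (5360 bp), whose windows were almost wholly flanking DNA. When 50000 bp around the 5′ end was counted for every gene, Lifr rose from 12.1 to 20 peaks per 100 kb, the same as Pim1. No other member moved by more than 1.5 times under this window.

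**Figure D2:**
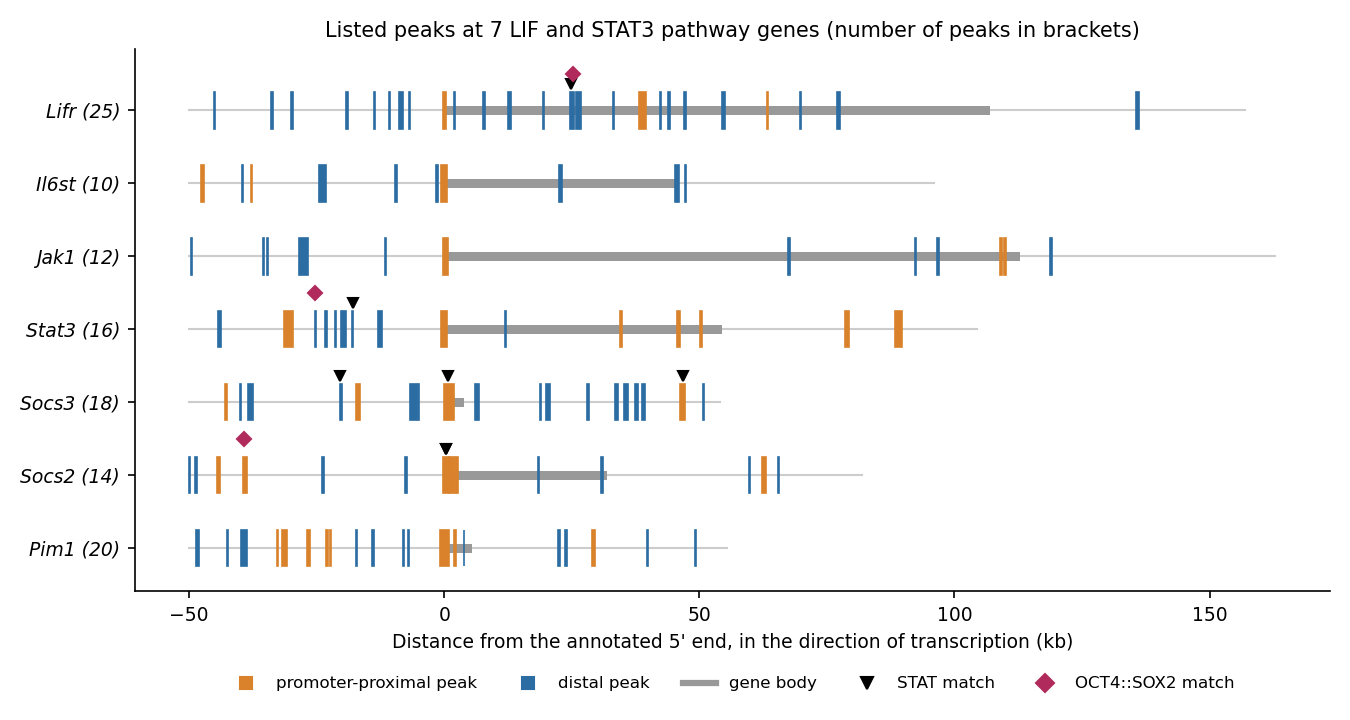
Listed peaks at each gene by distance from the annotated 5′ end in kb, positive in the direction of transcription; the grey bar is the gene and the thin line its window, promoter-proximal peaks are orange and distal ones blue, triangles mark STAT and diamonds OCT4::SOX2 matches, and narrow peaks are drawn at a minimum line width. Peaks at Lifr run through the front of the gene, Jak1 has a long body stretch without one, and Socs3 and Socs2 each have STAT matches within the peak that covers the 5′ end.

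Lifr encodes the LIF-binding chain of the receptor and lies on chr15:7090614-7197489, plus strand (GRCm38). Its 25 peaks were all nearer to its 5′ end than to that of any other protein-coding gene, and no other annotated gene started in its window. Of these peaks 15 had their centre in the gene body, all of them in introns, 9 lay upstream and 1 downstream, in an intron of Egflam. No peak was listed between chr15:7168114 and 7226200, a stretch of 58087 bp that holds the 3′ part of the gene.

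The annotation gives 7 distinct TSS for Lifr, and 5 of them were within 1000 bp of a listed peak. The peak at the most upstream TSS was 600 bp wide (chr15:7090299-7090898), with 51.3% GC and an observed to expected CpG ratio of 0.206. That ratio was lower at 1.47% of the 12900 protein-coding genes whose 5′ end lay in a peak. The widest Lifr peak, of 1294 bp, lay 38.8 kb further along at the TSS of other coding transcripts (chr15:7128799-7130092), with 68.1% GC and a CpG ratio of 0.922. Lifr therefore had a CpG-poor peak at its annotated 5′ end and a CpG-rich one at an internal start.

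RefSeq promoter windows, which run from 250 bases before to 50 after a start, were available for 2 Lifr starts, neither of them the most upstream one. The first lay wholly inside the widest peak, and the second, at the start of transcripts further into the gene, held no base of a listed peak. They are shown up to their first exon, to let the difference in base composition be seen, with each CpG in capitals.
Lifr internal start in a peak, chr15:7129322-7129554, plus strand: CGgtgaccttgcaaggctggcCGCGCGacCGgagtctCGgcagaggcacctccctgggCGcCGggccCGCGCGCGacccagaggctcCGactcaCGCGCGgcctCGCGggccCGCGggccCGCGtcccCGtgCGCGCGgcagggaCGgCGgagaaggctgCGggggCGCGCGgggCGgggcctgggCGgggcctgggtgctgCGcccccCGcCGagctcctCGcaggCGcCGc
Lifr start without a listed peak, chr15:7140292-7140504, plus strand: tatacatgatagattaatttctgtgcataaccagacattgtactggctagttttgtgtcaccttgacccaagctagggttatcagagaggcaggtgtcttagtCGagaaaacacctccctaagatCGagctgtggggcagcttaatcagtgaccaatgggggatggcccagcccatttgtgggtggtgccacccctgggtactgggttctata
The first stretch held 40 CpG in 233 bases at 82.8% GC, and the second held 2 in 213 bases at 48.8% GC.

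Consensus sequences were searched on both strands of each peak. The study searched motifs with HOMER instead, so a peak without a match here may still hold a motif as the study counted it. The STAT palindrome was TTCCNGGAA, the composite OCT4::SOX2 site was CATTGTNATGCAAAT with up to 2 mismatches, and its OCT part, which overlaps it, was also counted alone as ATGCAAAT. One Lifr peak held both kinds of site. This distal peak of 845 bp in an intron, chr15:7115193-7116037, has its centre 25 kb downstream of the annotated 5′ end and its nearer edge 13522 bp from the internal TSS. It had 1 STAT match, 1 OCT4::SOX2 match and 2 OCT matches, and was the only member peak with both a STAT and an OCT4::SOX2 match. In the whole list 19 peaks had both (0.0186%). The site starts lay 345 bp apart.
Lifr intron, STAT match in capitals, chr15:7115457-7115585, plus strand: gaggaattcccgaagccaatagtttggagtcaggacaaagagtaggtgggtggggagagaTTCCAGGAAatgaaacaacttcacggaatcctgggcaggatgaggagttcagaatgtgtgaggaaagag
Lifr intron, OCT and OCT4::SOX2 matches in capitals, chr15:7115802-7115936, minus strand: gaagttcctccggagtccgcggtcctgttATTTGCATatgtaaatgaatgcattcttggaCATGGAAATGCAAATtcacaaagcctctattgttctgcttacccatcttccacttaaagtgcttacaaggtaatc
Counted from 1 at the 5′ end of the consensus, the OCT4::SOX2 match differed from it by T4G and T6A, both in the SOX part, while its OCT part was intact. The second OCT match is read on the other strand in this stretch. The next peak, chr15:7116376-7117353, was the widest distal peak at Lifr, with 978 bp. It held 1 SOX match (CCNTTGT) and 1 KLF match (CCACNCCC), but no STAT, OCT or OCT4::SOX2 match.

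Il6st encodes gp130, the signalling chain that LIFR shares with receptors of other IL-6 family cytokines, and lies on chr13:112464070-112510086, plus strand. Its window held 10 peaks, and all were nearest to its own 5′ end among protein-coding genes, although 3 long non-coding RNAs started upstream. The peak over the 5′ end, chr13:112463523-112464524, was 1002 bp wide with 67.8% GC and a CpG ratio of 0.827. It was not the widest. A distal peak of 1375 bp lay 23.8 kb upstream, chr13:112439617-112440991, and was wider than 96.0% of all listed peaks.

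The Il6st body held 2 peaks in 46017 bp. One of 653 bp was intronic and 54.2% soft-masked as repeat, and the other, of 707 bp, had its centre in an untranslated exon close to the 3′ end of the gene. No Il6st peak had a STAT or OCT4::SOX2 match. A 386-bp peak 1.48 kb upstream of the 5′ end had 1 OCT match, and the site around it differed from OCT4::SOX2 by 3 bases (C1T, G5T and T6A). KLF matches were found in 4 of the 10 peaks, 5 of them in the 1375-bp peak.

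Jak1, on chr4:101152367-101265282, minus strand, encodes a kinase bound to the receptor chains that phosphorylates them and STAT3. Its 12 peaks made it the least dense of the 7 windows, with 2.76% of the window in listed peaks. The peak over the 5′ end, chr4:101264441-101265535, was 1095 bp wide with 66.6% GC and a CpG ratio of 0.858. Behind it, no peak was listed for 66546 bp of the gene body, chr4:101197895-101264440, the longest such stretch within any of the 7 windows. The first peak after it, of 326 bp, lay 67.6 kb from the 5′ end.

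The widest Jak1 peak lay outside the gene. It was a distal peak of 1650 bp, 27.6 kb upstream and intronic to the non-coding Gm12796, chr4:101292050-101293699, with 58.9% GC and a CpG ratio of 0.668, and was wider than 98.4% of all peaks. The GC content of the other distal peaks at Jak1 was between 41.5% and 51.7%. Of the 12 peaks, 9 were nearest to the 5′ end of Jak1 and 3, at its 3′ end, to that of Raver2. No Jak1 peak had a STAT or OCT4::SOX2 match. One distal peak of 295 bp, 34.6 kb upstream, held an OCT match.

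Stat3, on chr11:100885098-100939540, minus strand, encodes the transcription factor that carries the LIF signal to DNA. Its 16 peaks had the least clear assignment, since its window held the 5′ ends of 3 other protein-coding genes. Only 4 of the peaks were nearest to the Stat3 5′ end, against 8 for Cavin1, 3 for Stat5a and 1 for Stat5b. The peak over the Stat3 5′ end, chr11:100938922-100940194, was 1273 bp wide and had the lowest GC content of the member 5′ end peaks after Lifr, 60.2%, with a CpG ratio of 0.628. The widest peak in the window, 1698 bp, lay over the Cavin1 start 30.5 kb upstream.

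Inside the Stat3 body 4 peaks were listed, of 205, 374, 572 and 503 bp from the 5′ to the 3′ end. The last 3 were within 1000 bp of a TSS of non-coding Stat3 transcripts, and 10 of the 14 distinct Stat3 TSS had a listed peak within 1000 bp. The widest distal peak that was nearest to Stat3 lay 12.6 kb upstream, chr11:100951719-100952494, with 776 bp and neither a STAT nor an OCT4::SOX2 match.

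In the Stat3 window 1 peak had a STAT match and another an OCT4::SOX2 match, and both were in Cavin1. The STAT match was in a 270-bp peak over an untranslated exon of Cavin1, 17.9 kb upstream of Stat3. The OCT4::SOX2 match was in a 194-bp peak in a Cavin1 intron, 25.3 kb upstream of Stat3, and ended 2 bp before the edge of that peak. Where a stretch touched an exon, 30 bases or fewer are shown.
Stat3 window, STAT match in capitals, chr11:100957463-100957491, plus strand: aaaacaaggcTTCCCGGAAggcagttcct
Stat3 window, OCT4::SOX2 match in capitals, chr11:100964738-100964814, plus strand: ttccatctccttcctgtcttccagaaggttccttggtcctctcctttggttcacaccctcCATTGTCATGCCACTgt
This OCT4::SOX2 match differed from the consensus by A12C and A14C, so its SOX part was intact and its OCT part was not.

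Socs3, on chr11:117966079-117970047, minus strand, encodes an inhibitor that binds gp130 and JAK and ends the STAT3 signal, and it is itself a STAT3 target. The peak over its 5′ end, chr11:117968051-117970137, was the widest of all member peaks, with 2087 bp. It was wider than 99.6% of listed peaks and than 97.9% of the peaks over a protein-coding 5′ end. It reached 90 bp upstream of the annotated 5′ end and 1996 bp into the gene, so that it covered all 3 distinct Socs3 TSS. The whole Socs3 window had the largest share of its length in listed peaks, 11.4%, against 2.76% to 8.64% at the other 6 genes.

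Of the 18 Socs3 peaks, 12 were nearest to the Socs3 5′ end and 5 to that of Pgs1, whose 5′ end lies 16245 bp upstream. The intergenic side downstream of Socs3 held 10 peaks. The widest distal peak, 1444 bp, lay 6.01 kb upstream, chr11:117975339-117976782. It held 1 OCT match, 2 SOX matches and 2 KLF matches, but its site closest to OCT4::SOX2 had 3 mismatches (C1G, A2G and T6C).

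STAT matches were found in 3 Socs3 peaks, more than at any other member. The match in the 5′ end peak had its centre at −57 from the TSS of the protein-coding transcript in GENCODE. From the annotated 5′ end of the gene it lay 804 bp downstream. The site is in no GENCODE exon but inside an exon in RefSeq. Another match lay 7 bp from the centre of a 949-bp peak 46.7 kb downstream, and the remaining one in a 240-bp peak in an intron of Pgs1, 20.3 kb upstream. All are shown because the palindrome is the same in each, read on one strand or the other, while the flanks differ.
Socs3 5′ end peak, STAT match in capitals, chr11:117969229-117969257, plus strand: cgccccccgaTTCCTGGAActgcccggcc
Socs3 downstream peak, STAT match in capitals, chr11:117923247-117923375, plus strand: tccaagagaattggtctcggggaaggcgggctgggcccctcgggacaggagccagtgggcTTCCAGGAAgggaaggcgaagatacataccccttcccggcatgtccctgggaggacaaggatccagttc
Socs3 upstream peak, STAT match in capitals, chr11:117990308-117990398, plus strand: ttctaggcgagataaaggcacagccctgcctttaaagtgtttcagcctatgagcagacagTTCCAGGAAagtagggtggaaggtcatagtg
The RefSeq promoter window of Socs3, chr11:117969317-117969616, begins upstream of the first site and holds no STAT match. In all, 1.15% of 32851 RefSeq promoter windows held one.

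Socs2, on chr10:95385362-95417180, minus strand, encodes a related inhibitor best known for restraining growth hormone signalling. Its 5′ end lay in a cluster of 3 peaks of 1141, 1071 and 545 bp. The first pair was separated by 29 bp, the smallest distance between neighbouring peaks at any member. Together they reached 8 of the 12 distinct Socs2 TSS. The long non-coding gene 5730420D15Rik started 195 bp upstream in the opposite direction, and its start lay in the same 1141-bp peak, so this peak cannot be given to Socs2 alone.

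The 1141-bp peak, chr10:95416325-95417465, was the only member peak with more than 1 STAT match. The 2 matches had identical letters, started 11 bp apart and had their centres at −51 and −62 from a Socs2 protein-coding TSS of GENCODE at chr10:95416857, the nearest one. From the annotated 5′ end they lay 272 and 261 bp downstream. In the whole list 45 peaks had 2 or more STAT matches (0.044%).
Socs2 5′ end peak, STAT matches in capitals, chr10:95416899-95416928, plus strand: ccgctTTCCAGGAActTTCCAGGAAtccgc
As at Socs3, both sites are outside GENCODE exons and inside RefSeq ones. Socs3 and Socs2 were the only 2 members with a STAT match in the peak over the 5′ end, and in each gene the positions above are given from the nearest of its coding TSS, of which Socs2 has several.

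One Socs2 peak lay at a locus that the study drew as a browser track for cells in which OCT4 was degraded with auxin, an experiment not analysed here. From the MD-OCT4 and MD*-OCT4 libraries, the study placed this locus in a cluster of OCT4-bound sites. Accessibility in that cluster was lower in EG1 with MD-OCT4 and recovered only in part. Peak positions alone cannot show this. This peak of 725 bp, chr10:95455887-95456611, was 39.1 kb upstream of the Socs2 5′ end in an intron of the long non-coding gene Gm47599. It is classed as promoter-proximal here because the pseudogene Gm47600 starts 921 bp from its edge, while the nearest protein-coding 5′ end was that of Socs2. The peak had 45.9% GC, a CpG ratio of 0.236 and 32.1% soft-masked bases. It held the only OCT4::SOX2 match at Socs2, 82 bp from its centre, together with 2 KLF matches.
Socs2 upstream peak, OCT4::SOX2 match in capitals, chr10:95456264-95456398, plus strand: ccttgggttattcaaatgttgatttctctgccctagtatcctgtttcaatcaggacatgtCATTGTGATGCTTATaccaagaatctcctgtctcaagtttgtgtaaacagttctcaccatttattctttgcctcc
The match differed from the consensus by A12T and A13T, both in the OCT part. Of the 14 Socs2 peaks, 8 were nearest to the Socs2 5′ end, 3 to that of Mrpl42 and 3 to that of Cradd.

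Pim1, on chr17:29490753-29496112, plus strand, encodes a serine/threonine kinase of survival and growth whose gene is induced by STAT3. Its peak over the 5′ end, chr17:29489888-29491758, was 1871 bp wide, second only to that of Socs3 among the 7 genes, and had the highest GC content of the 7 peaks over a 5′ end, 68.7%, with a CpG ratio of 0.843. Further peaks of 374 and 150 bp followed within the gene, the latter over a coding exon and the narrowest of all member peaks. All 7 distinct Pim1 TSS were within 1000 bp of a listed peak.

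Upstream of Pim1, 12 peaks lay within the non-coding genes AC163629.2 and Gm26885, the latter antisense to Pim1 and starting inside it, and 5 peaks were downstream. The Gm26885 start lay 167 bp from the edge of the Pim1 5′ end peak, so that peak cannot be given to Pim1 alone. The widest distal peak, 1065 bp, lay 39.3 kb upstream, chr17:29450944-29452008. The distal peaks at Pim1 were many but narrow, with a median distal width of 235.5 bp against 352 bp over all listed distal peaks. No Pim1 peak had a STAT or OCT4::SOX2 match. The 5′ end peak held 1 OCT match, and a 592-bp peak 29.3 kb downstream held 1 of the 2 ESRRB matches (TCAAGGTCA) at the members. The other was in a Lifr intron.

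The peaks over the 7 annotated 5′ ends had a median width of 1141 bp, against 1110 bp over all 12900, but single genes lay far from it. GC content was above the median of 60.8% at 5 of them and below it at Lifr (51.3%) and Stat3 (60.2%). On width, the Lifr peak exceeded 7.44% of such peaks, while those of Socs3 and Pim1 exceeded 97.9% and 95.3%. RefSeq promoter windows were matched for 6 of the 7 genes, 8 windows in all, and 7 of these overlapped a listed peak, against 48.9% of all RefSeq windows. Of the 59 distinct TSS of the 7 genes, 43 lay within 1000 bp of a listed peak. The share over all annotated TSS was not computed, so this count has no background beside it.

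Among the 115 member peaks, 34 were promoter-proximal, that is at most 1000 bp from any annotated TSS (29.6%, 95% Wilson interval 22.0% to 38.5%), against 25.1% of all listed peaks. In 17 of the 34 the TSS belonged to the member itself, and in the other 17 to another gene. When TSS of protein-coding transcripts alone were counted, the share was 14.8%, against 17.6% of all peaks. By position, 36 peaks lay in the bodies of the 7 genes, 56 upstream and 23 downstream. The centre fell in an intron of any gene in 51.3% of member peaks (44.4% of all peaks), between genes in 32.2% (38.3%), in a coding exon in 4.35% (5.5%) and in another exon in 12.2% (11.8%).

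The median width of member peaks was 381 bp (order-statistic interval 326 to 503 bp), and that of all listed peaks was 415 bp. Promoter-proximal member peaks had a median of 596 bp and all promoter-proximal peaks 815 bp, while the distal medians were 320 and 352 bp. Peaks over 1000 bp made up 12.2% of member peaks and 12.4% of all peaks. Member peaks held fewer repeats, with 10.7% of their bases soft-masked against 16.8%, and 4 of the 115 were at least 50% soft-masked (3.48%, against 11.3%). These differences were not tested.

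**Figure D3:**
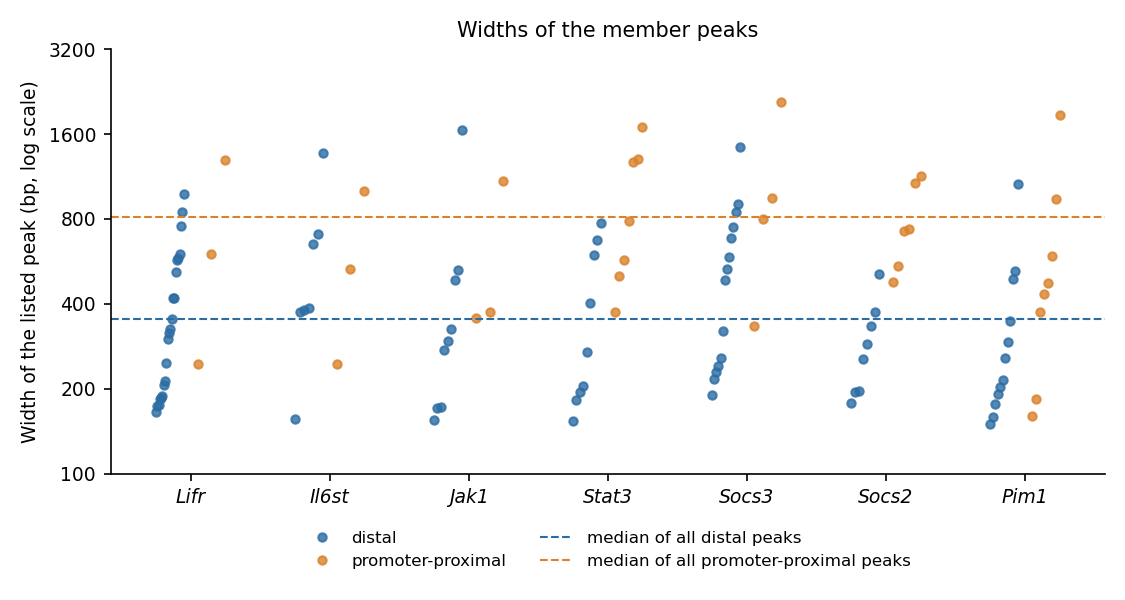
Width in bp (log scale) of each of the 115 member peaks by gene, with distal peaks in blue, promoter-proximal peaks in orange and the medians of all listed peaks of each kind as dashed lines. The widest point of each of Socs3, Socs2 and Pim1 is the peak over its 5′ end, while a distal peak is the widest at Il6st and Jak1.

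STAT matches were found in 6 of the 115 member peaks (5.22%, interval 2.41% to 10.9%), against 2.17% of all listed peaks. They lay at Socs3 (3 peaks), Socs2, Lifr and the Stat3 window (1 peak each). With the looser palindrome TTCNNNGAA the shares were 16.5% and 15%. OCT4::SOX2 matches were found in 3 peaks (2.61%, interval 0.891% to 7.39%), at Lifr, Socs2 and the Stat3 window, against 0.677% of all peaks. All 3 had exactly 2 mismatches. The intervals cover counting error only, and the 6 and 3 peaks came from 4 and 3 of the 7 genes. One of the OCT4::SOX2 peaks is at the browser locus that the choice of Socs2 mentions, and without it the share was 1.75% (interval 0.482% to 6.17%), which includes that of all peaks. Among distal peaks alone, STAT matches were in 3.7% of member peaks (interval 1.27% to 10.3%) against 1.98% of all, and OCT4::SOX2 matches in 2.47% (0.68% to 8.56%) against 0.731%. Both of these intervals include the share of all distal peaks. Among promoter-proximal peaks, STAT matches were in 3 of 34 member peaks (8.82%, interval 3.05% to 23.0%) against 2.74% of all. One of these peaks lies 46.7 kb downstream of Socs3, and its nearest TSS is that of the pseudogene Gm11726, 925 bp from its edge. The others are the peaks over the 5′ ends of Socs3 and Socs2. OCT4::SOX2 matches were in 1 of the 34 (2.94%, 0.521% to 14.9%) against 0.514%. That peak is the one at the browser locus, classed as promoter-proximal through the pseudogene Gm47600. Without it, no promoter-proximal member peak had an OCT4::SOX2 match. The 2 promoter-proximal intervals, and those over all 115 member peaks, lie above the background shares. For OCT4::SOX2 this holds only with the browser-locus peak counted. With peaks extended by 100 bp at each side, 0.91% of all peaks had an OCT4::SOX2 match, inside the interval of 0.891% to 7.39%. The peaks with a match are few, come from few genes and were not tested, so no higher share at the 7 genes is read from these counts.

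OCT matches were in 5 member peaks (4.35%, against 2.56%), at Lifr, Il6st, Jak1, Socs3 and Pim1. SOX matches were in 36 (31.3%, against 28.0%) and KLF matches in 32 (27.8%, against 25.9%). ESRRB matches were in 2 (1.74%, against 2.82%). The background shares for OCT, SOX, KLF and ESRRB lay within the intervals of the member shares. SOX matches were in 9 of 25 Lifr peaks and 7 of 18 Socs3 peaks. KLF matches were in 1 of 25 Lifr peaks and 8 of 18 Socs3 peaks, a pair named after the values of all 7 genes were seen and not tested. None of the 6 motifs was found in 58 of the 115 peaks. The share over all listed peaks was not computed, so no trait of the 7 genes is read from this count.

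**Figure D4:**
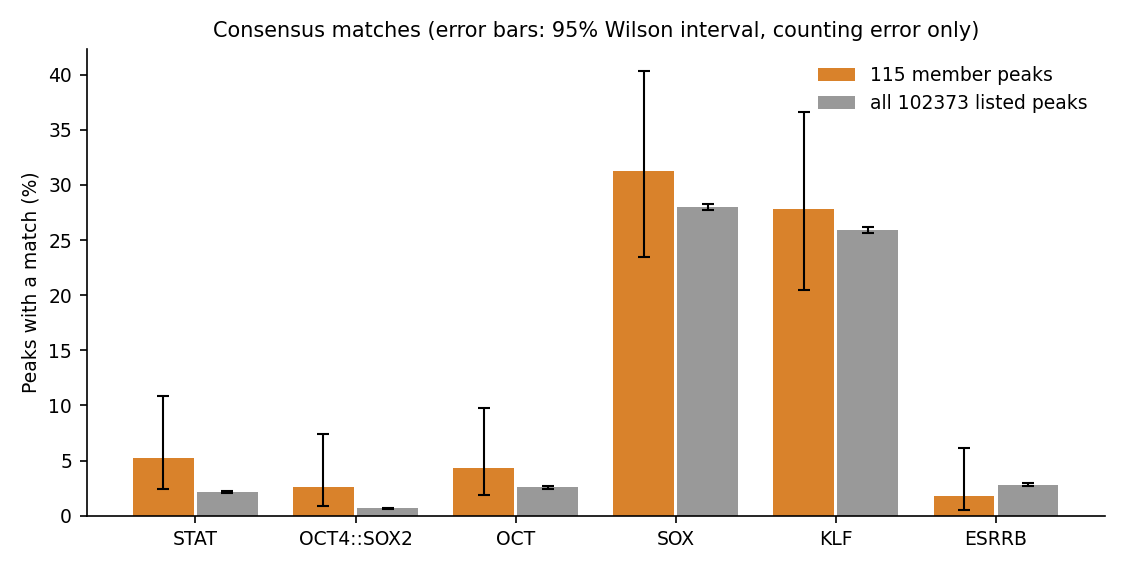
Share of peaks in percent with at least 1 match to each consensus, for member peaks (orange) and all listed peaks (grey), with 95% Wilson intervals that cover counting error only. Member shares are 5.22% for STAT and 2.61% for OCT4::SOX2 against 2.17% and 0.677% of all peaks, and the SOX and KLF bars are of similar height in both.

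A list of 42 further genes of the pathway was described in the same way. Of these, 41 had a listed peak within 1000 bp of a TSS, where 70.4% of protein-coding genes did, and their median was 10.9 peaks per 100 kb. The exception was Il6, the ligand that signals through IL-6 receptor and gp130, whose nearest peak to a TSS lay 32614 bp away.

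Among the ligands, 6 of 7 had a TSS peak. Osm, encoding oncostatin M, was the densest with 19.1 peaks per 100 kb, and its neighbour Lif, the ligand of LIFR, had 18.3 in a window that overlaps it. Il6 was the least dense with 4.68. All 4 further receptor chains had a TSS peak, from 6.82 at Osmr to 17.4 at Il6ra. All 3 further kinases did too, with Jak2 (6.2) close to Jak1 (5.64) and Jak3 densest at 19.3.

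All 6 further STAT genes had a TSS peak. Stat5a, next to Stat3, had 4.77 peaks per 100 kb, and all 6 of its peaks were also in the Stat3 window. Stat6 had 17.8. The 10 further inhibitors all had one, from Socs6 with 3.59 to the phosphatase gene Ptpn6 with 19.5. So did the 3 adaptor and phosphatase genes that lead to ERK (8.08 at Ptpn11 to 15.8 at Grb2) and the PIM kinase genes Pim2 (9.51) and Pim3 (17.4).

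The 7 STAT3 target genes all had a TSS peak. Klf4, a pluripotency factor, had 6.65 peaks per 100 kb, less than the median of all protein-coding genes, while Bcl3, encoding a regulator of NF-κB, had 24.5, more than 99.8% of genes.

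**Figure D5:**
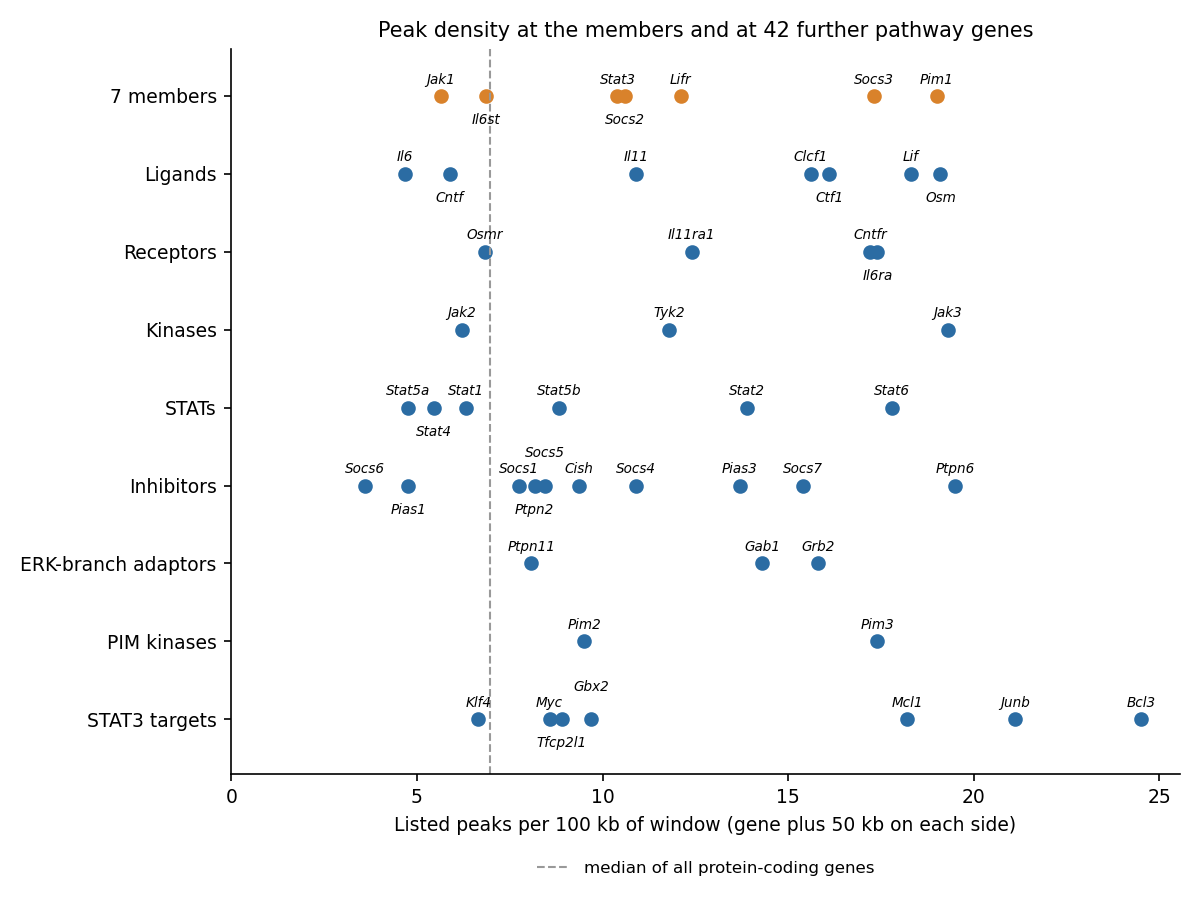
Listed peaks per 100 kb of window (x axis) for the 7 members (orange) and 42 further pathway genes by role (blue), with the median of all protein-coding genes (6.97) as a dashed line. Members spread from 5.64 at Jak1 to 19 at Pim1, and the STAT3 targets from 6.65 at Klf4 to 24.5 at Bcl3.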

How the data were processed

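The file analysed was a deposited list of merged ATAC-seq peaks, whose columns hold the chromosome, start and end of each peak, in bp, as the authors wrote them, without any signal. According to the submitters' processing notes and the study's methods, reads were aligned to GRCm38 with STAR 2.6.1c, duplicates were removed with Picard, peaks were called with MACS2 2.1.1.20160309, and peaks of all dox-treated libraries were merged with BEDTools. A removal of peaks over 5000 bp is also described, but 7 such peaks are in the list. Removal of peaks overlapping input or blacklisted regions could not be checked.

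Genes and TSS were taken from GENCODE M21 and sequence from GRCm38. Python 3.11.15 with pandas 2.3.3 and numpy 2.4.6 was used to assign peaks to windows, measure GC content, CpG ratio and soft-masked bases, and search consensus sequences on both strands. Distances from a TSS run to the nearest edge of a peak, and distances from the annotated 5′ end of a gene to its centre. RefSeq promoter windows (GRCm38.p6) were matched by symbol, and Socs2 had no entry. The scripts were tested on simulated sequence.

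For each gene, the peak nearest to the 5′ end, the widest peak, the widest distal peak and every peak with a STAT or OCT4::SOX2 match were named, and of the other pathway genes the densest and sparsest of each role and those without a TSS peak. Other peaks, and Lif, were named after their values were seen. The 7 genes, the pathway list and the markers were chosen with earlier results of these data known. No test was run. The planned limma fit of MD-OCT4 against MD*-OCT4 needs values per library and was not run. Leaving out the peak at the browser locus was chosen after seeing the data. Alternatives in window, width, TSS set, consensus and searched interval are given in the closing section.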

Additional observations from a re-analysis of the deposited data

How the results depend on the processing

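The number of listed peaks at the 7 genes was 66 within 20000 bp, 182 within 100000 bp and 73 when only peaks of at least 300 bp were kept, under which their median width was 582 bp. With distal peaks alone, the median of the 7 genes was 6.07 peaks per 100 kb, against 3.97 over all protein-coding genes. With protein-coding TSS alone, 14.8% of member peaks were promoter-proximal, below the 17.6% of all peaks, whereas with every TSS the member share was the higher one. The looser STAT palindrome gave 16.5%, against 15% of all peaks. OCT4::SOX2 matches were in 0.0% of member peaks with at most 1 mismatch (0.0537% of all) and in 7.83% with at most 3 (5.1% of all). In the central 200 bp of each peak, OCT was found in 1.74%, SOX in 17.4% and KLF in 13.9% of member peaks, against 1.13%, 14.0% and 12.2% of all. There, STAT was found in 4.35%, OCT4::SOX2 in 1.74% and ESRRB in 0.87% of member peaks, against 0.86%, 0.32% and 1.35% of all. With peaks extended by 100 bp at each side, STAT matches were in 5.22% of member peaks and 2.83% of all, a share within the interval of 2.41% to 10.9%. OCT4::SOX2 matches were then in 2.61% of member peaks and 0.91% of all, a share within the interval of 0.891% to 7.39%. Of 36 alternatives, 24, both of these included, kept the value within its interval or within 1.5 times.

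No paired analysis was possible because the file analysed gives peak positions alone, with nothing measured per library. This also holds for the planned fits without the replicate number and with 1 replicate left out, neither of which was run. Depth per library is unknown, so it cannot be said which peaks were called in few libraries.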
